A study of Bos taurus with 6 samples.

Results

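The BCL2 family decides whether a cell's mitochondria release the proteins that start apoptosis, and 10 of its genes were followed in bovine late morulae: the inhibitors BCL2, BCL2L1 and MCL1, the effectors BAX, BAK1 and BOK, and the BH3-only genes BAD, BID, BBC3 and PMAIP1. Members were picked as a list of gene symbols, with no threshold on their values. Of the 10 symbols, 9 had a row among the 15314 named genes of the deposited table, BBC3 was not analysed here, and 8 reached the mean of 10 scaled reads per library that was needed for a test. BCL2 was the member with a row that stayed below that mean.

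In this family, inhibitors bind and hold back the effectors, and BH3-only proteins bind the inhibitors or activate the effectors directly. Once active, BAX and BAK1 make pores in the outer mitochondrial membrane, cytochrome c leaves, and caspases are activated. Cell death is a normal event in mammalian preimplantation embryos, and much of the control over this family acts on the proteins, which RNA sequencing does not measure.

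Polyadenylated RNA came from pools of bovine embryos collected on day 6 after in vitro fertilization, with 15 embryos in each library and 2 libraries in each of 3 groups. Every embryo had received a small interfering RNA by injection: a nonspecific one in the control group, one against NOTCH1 in the NOTCH1 knockdown and one against RBPJ in the RBPJ knockdown. NOTCH1 is a receptor of the NOTCH pathway and RBPJ is the transcription factor on DNA that the cleaved receptor joins to switch on target genes. The labels do not tell if the replicates of a group are separate collections of embryos. The p-values therefore rest on a spread between libraries that could be technical only.

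The libraries held scaled counts that summed to between 10365695 and 10815554, at an approximate depth of 9625270 to 13664200 reads. RBPJ, at 447 and 391 scaled reads in the control, stood at 121 and 94.5 in the RBPJ knockdown (log2 fold change -1.96, standard error 0.18, limma adjusted p = 0.00143). That call was lost without the variance trend. NOTCH1 stood at 69.6 and 140 in the control, 48.0 and 49.5 in the NOTCH1 knockdown and 50.0 and 125 in the RBPJ knockdown. In the NOTCH1 knockdown its log2 fold change was -1.003 (95% interval -1.91 to -0.098, limma unadjusted p = 0.0325, adjusted p = 0.634). That did not pass adjustment over all genes, so the NOTCH1 knockdown was not shown at the RNA level. Replicate 1 of the RBPJ knockdown was as low in NOTCH1 as the libraries injected against it. Of 9 morula markers, 8 had a row and all 8 passed the minimum, among them POU5F1 at 10911 to 12942 and CDX2 at 624 to 976. The 10 cumulus, granulosa and fibroblast markers with a row summed to 655 and 749 in the control, 650 and 720 in the NOTCH1 knockdown and 753 and 742 in the RBPJ knockdown. COL1A1, at 286 to 346, CYP19A1, COL1A2, DCN, INHBA and LUM were above the minimum, and HAS2, TNFAIP6, FST and COL3A1 were under it. The 8 blood markers summed to between 1176 and 1588, of which HBA made up 976 to 1380, with CD68, LYZ and CD14 above the minimum and PTPRC, HBB, CD3E and CD79A under it.

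No member passed the test in any comparison. With the Benjamini-Hochberg adjusted p of limma below 0.05 as the threshold, the NOTCH1 knockdown had 0 called genes of 12070 against the control (0% called), with 880 at an unadjusted p below 0.05. The RBPJ knockdown had 1, RBPJ itself (0.00829% called), with 524 at an unadjusted p below 0.05. With the replicate number added as a block the counts over all genes were 138 and 12, and the members called were 0 in both. The member nearest to a call was BCL2L1, which was higher in both knockdowns. In these bulk pools, fewer cells of a type and less RNA per cell cannot be told apart.

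**Figure D1:**
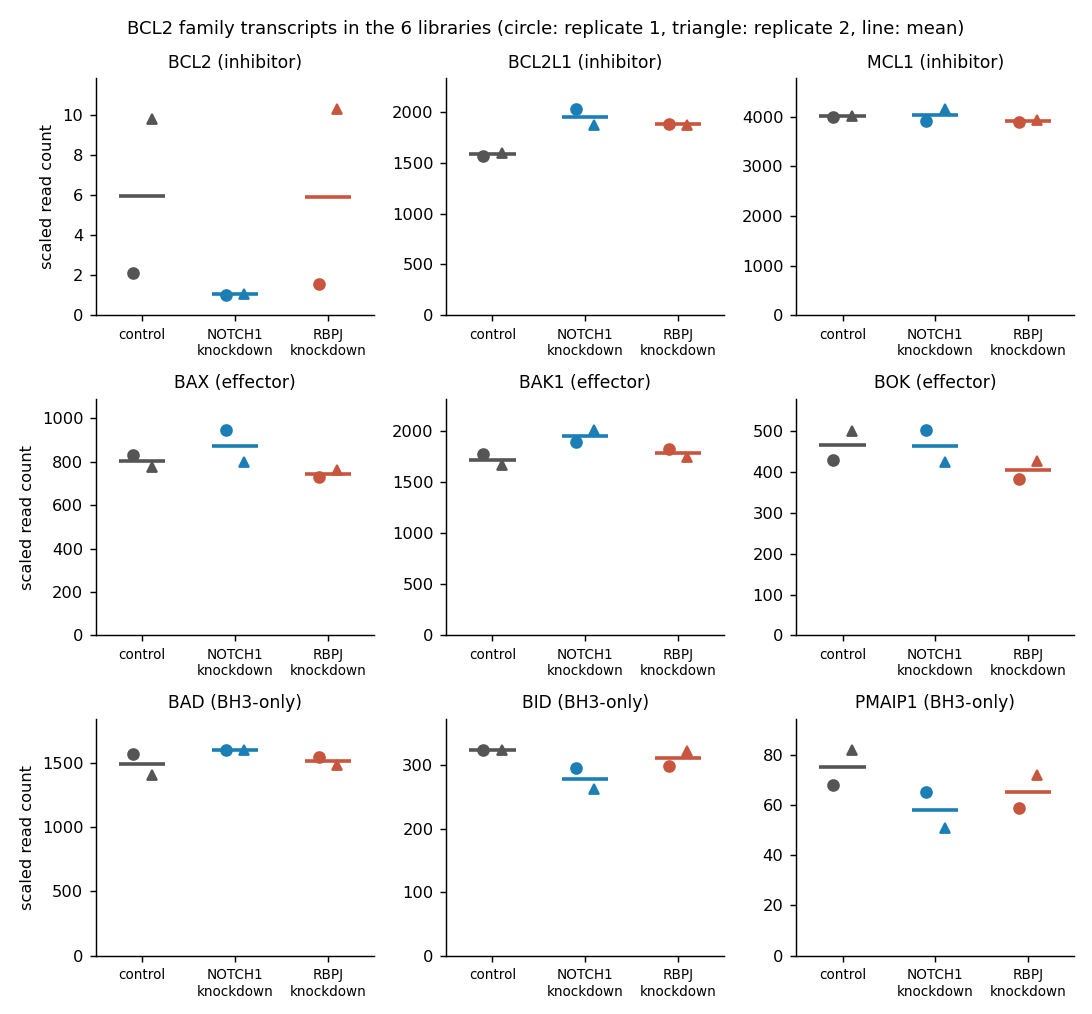
Scaled read counts (vertical axes, from 0, with a scale of their own in each panel) of the 9 members with a row, in the control, NOTCH1 knockdown and RBPJ knockdown. Circles are replicate 1, triangles replicate 2 and lines the mean of 2 libraries. BCL2L1 lies at 1565 and 1600 in the controls and between 1869 and 2024 in the 4 knockdown libraries, and BCL2 stays at or below 10.3 in all libraries.

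Among the inhibitors, BCL2L1, which encodes BCL-xL, had scaled counts of 1565 and 1600 in the control, 2024 and 1869 in the NOTCH1 knockdown and 1882 and 1874 in the RBPJ knockdown. All 4 knockdown libraries lay above both controls, while the knockdown groups overlapped each other. The fold change was 1.23 in the NOTCH1 knockdown (95% interval 1.05 to 1.44, log2 fold change 0.30, standard error 0.10, limma adjusted p = 0.555). In the RBPJ knockdown it was 1.19 (95% interval 1.02 to 1.39, log2 fold change 0.25, standard error 0.10, limma adjusted p = 0.983). Both comparisons use the same control libraries. BCL2L1 was the 1 member of 8 with an unadjusted p below 0.05 in each, where 7.29% of all genes had one in the NOTCH1 knockdown and 4.34% in the RBPJ knockdown. Neither difference held up against adjustment over all genes. With the replicate block the limma adjusted p was 0.146 in the NOTCH1 knockdown and 0.432 in the RBPJ knockdown. The direct comparison gave a NOTCH1 to RBPJ knockdown fold of 1.04 (95% interval 0.886 to 1.21). In RefSeq's gene table for the assembly ARS-UCD2.0, which is not the build of these files, BCL2L1 overlaps the long noncoding RNA LOC107133075, which was not analysed here, and no use of strand in the counting is stated, so reads of this pair may not be separated.

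Several morula markers also had higher values in the NOTCH1 knockdown, although 0 of 8 passed (smallest limma adjusted p = 0.466). The 8 markers summed to 44431 and 43510 in the control, 56985 and 50937 in the NOTCH1 knockdown, and 53214 and 41246 in the RBPJ knockdown. In the NOTCH1 knockdown 7 of the 8 were higher by sign and 5 lay above both controls, where 18.6% of all genes did. Among the 5 was GATA3, a trophectoderm factor, at 1018 and 856 against 577 and 515. In the RBPJ knockdown GATA3 had 737 and 391, on both sides of the controls. GATA6, a hypoblast factor of the same list, had 7103 and 9492 in the control. It had 10556 and 10410 in the NOTCH1 knockdown and 10425 and 10360 in the RBPJ knockdown. All 4 knockdown libraries thus lay above both controls here too, as for 1 of the 8 markers, against 7.98% of all genes. In the RBPJ knockdown 4 of the 8 markers were higher by sign and 4 were lower. The part of cell type makeup in the BCL2L1 values was not tested.

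MCL1, a short-lived inhibitor that binds BAK1, was the steadiest member. It had 3996 and 4015 scaled reads in the control, 3912 and 4150 in the NOTCH1 knockdown and 3893 and 3933 in the RBPJ knockdown. The highest library was 1.07 times the lowest. Both RBPJ knockdown libraries lay below both controls, by an amount that gave a fold change of 0.977 (95% interval 0.847 to 1.13, limma adjusted p = 0.995). In the NOTCH1 knockdown the groups overlapped, with a fold change of 1.01 and a 95% interval of 0.872 to 1.16 (limma adjusted p = 0.991).

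BCL2, the founding inhibitor of the family, was close to absent. Its scaled counts were 2.12 and 9.78 in the control, 1.02 and 1.08 in the NOTCH1 knockdown and 1.54 and 10.3 in the RBPJ knockdown. At the value of a single read in each library, these are about 2 and 9, 1 and 1, and 2 and 10 reads. The libraries with 9 and 10 reads were replicate 2 of the control and of the RBPJ knockdown, and the other libraries of those groups were near the NOTCH1 knockdown. A group difference in BCL2 was not detectable at this depth. Without the minimum on the mean, limma gave a log2 fold change of -1.50 in the NOTCH1 knockdown (standard error 0.85, adjusted p = 0.777).

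Among the effectors, BAX had 830 and 774 scaled reads in the control, 948 and 798 in the NOTCH1 knockdown and 731 and 760 in the RBPJ knockdown. The NOTCH1 knockdown overlapped the control, while both RBPJ knockdown libraries lay below it. The fold changes were 1.08 (95% interval 0.895 to 1.32, limma adjusted p = 0.880) and 0.930 (95% interval 0.767 to 1.13, limma adjusted p = 0.989). BAX was higher in both NOTCH1 knockdown libraries than in both RBPJ knockdown libraries, with a fold of 1.17 between these groups (95% interval 0.962 to 1.41, limma adjusted p = 0.999). In the RefSeq table BAX overlaps TULP2, which had 3.27 to 14.8 scaled reads here.

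BAK1, the other main pore former, had 1773 and 1668 in the control, 1895 and 2016 in the NOTCH1 knockdown and 1830 and 1750 in the RBPJ knockdown. Both NOTCH1 knockdown libraries lay above both controls, and the RBPJ knockdown overlapped the control. The fold change was 1.14 in the NOTCH1 knockdown (95% interval 0.971 to 1.33, limma adjusted p = 0.761) and 1.04 in the RBPJ knockdown (95% interval 0.889 to 1.22, limma adjusted p = 0.995).

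BOK, a BAX-like protein that is held in check mainly by its degradation, varied most among the effectors, with a coefficient of variation between replicates of 10.3%. It had 430 and 501 in the control, 504 and 424 in the NOTCH1 knockdown and 384 and 426 in the RBPJ knockdown. Both RBPJ knockdown libraries lay below both controls, the nearest pair being 426 and 430. The fold change was 0.872 in the RBPJ knockdown (95% interval 0.693 to 1.10, limma adjusted p = 0.983) and 0.997 in the NOTCH1 knockdown, where the groups overlapped.

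**Figure D2:**
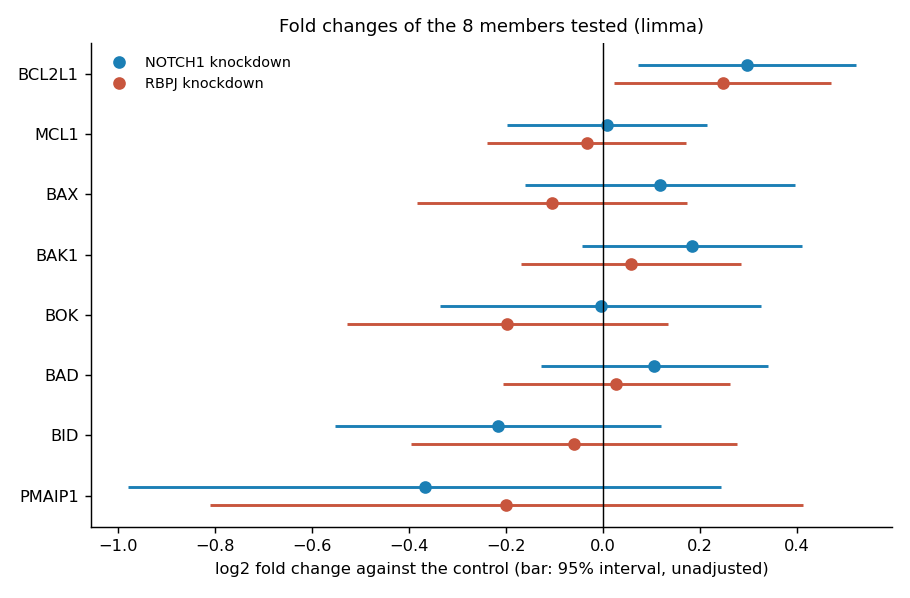
Log2 fold change against the control (horizontal axis) for the 8 members tested, with bars for the 95% interval of limma, not adjusted for the number of genes. Blue is the NOTCH1 knockdown and red the RBPJ knockdown. The bars of BCL2L1 alone stay above 0 in both, from 0.07 to 0.52 and from 0.02 to 0.47, and the widest bars are those of PMAIP1.

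Among the BH3-only genes, BAD, which binds BCL2L1 and is switched off by phosphorylation, had 1567 and 1410 scaled reads in the control, 1598 and 1603 in the NOTCH1 knockdown and 1545 and 1486 in the RBPJ knockdown. The NOTCH1 knockdown lay just above both controls and the RBPJ knockdown between them. The fold changes were 1.08 (95% interval 0.915 to 1.27, limma adjusted p = 0.875) and 1.02 (95% interval 0.866 to 1.20, limma adjusted p = 0.997). BAD overlaps GPR137 in the RefSeq table. GPR137 had 612 to 1049 scaled reads, and no use of strand in the counting is stated, so the same limit holds for this pair.

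BID, which links death receptors to the mitochondria once a caspase has cut it, had 324 and 324 in the control, 295 and 263 in the NOTCH1 knockdown and 299 and 323 in the RBPJ knockdown. All 4 knockdown libraries were below both controls, with replicate 2 of the RBPJ knockdown lower by less than 1 SD of its own group. The fold change was 0.860 in the NOTCH1 knockdown (95% interval 0.681 to 1.09, limma adjusted p = 0.807) and 0.959 in the RBPJ knockdown (95% interval 0.760 to 1.21, limma adjusted p = 0.995).

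PMAIP1, also called NOXA, is an inducible binder of MCL1 and was low and variable here, with a coefficient of variation between replicates of 15.0%. It stood at about 47 to 76 reads a library, and the part of counting noise in that spread was not tested. Its scaled counts were 68.0 and 81.9 in the control, 65.1 and 51.0 in the NOTCH1 knockdown and 58.5 and 71.9 in the RBPJ knockdown. Both NOTCH1 knockdown libraries lay below both controls, and the RBPJ knockdown overlapped the control. The fold change was 0.775 in the NOTCH1 knockdown (95% interval 0.507 to 1.18, limma adjusted p = 0.828) and 0.871 in the RBPJ knockdown (95% interval 0.570 to 1.33, limma adjusted p = 0.995).

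As a set, the 8 tested members had a median log2 fold change of 0.06 in the NOTCH1 knockdown, with 5 higher and 3 lower by sign, where the median over all genes tested was 0.01. In the RBPJ knockdown the median was -0.05, with 3 higher and 5 lower, where all genes had a median of -0.00. In the NOTCH1 knockdown BCL2L1, BAK1 and BAD lay above both controls, 3 of 8 members against 18.6% of all genes, and BID and PMAIP1 below, 2 of 8 against 17.2%. In the RBPJ knockdown BCL2L1 lay above, 1 of 8 against 15.3%, and MCL1, BAX, BID and BOK below, 4 of 8 against 16.8%. Over all 4 knockdown libraries at once, BCL2L1 lay above both controls and BID below, 1 of 8 each way, against 7.98% and 7.93% of all genes. In total the 9 members with a row made up 0.0991% to 0.106% of a library's scaled reads.

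The NOTCH1 and RBPJ knockdowns were also set against each other directly. Of 12070 genes limma called 1, RBPJ (0.00829% called), with 439 at an unadjusted p below 0.05 (3.64%), and of the 8 members it called 0, with 0 at an unadjusted p below 0.05. BAX, BAK1 and BAD lay higher in both NOTCH1 knockdown libraries, 3 of 8 members against 17.5% of all genes, and BID lay lower, 1 of 8 against 15.5%. The difference in response between the knockdowns was thus not shown for any member.

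The ratio of an effector or BH3-only gene to an inhibitor does not depend on a scaling by a single factor per library. It is compared here between libraries, where transcript length cancels, and does not say which of the paired genes had the higher level. The ratio of BAX to BCL2L1 was 0.530 and 0.484 in the control, 0.468 and 0.427 in the NOTCH1 knockdown and 0.388 and 0.405 in the RBPJ knockdown. Each of the 4 knockdown libraries lay below both controls, and the RBPJ knockdown lay below the NOTCH1 knockdown. In the NOTCH1 knockdown the lower ratio went with the higher BCL2L1 count, and in the RBPJ knockdown with a higher BCL2L1 and a lower BAX count. BCL2L1 alone separated the same libraries from the controls, so the ratio is not independent of it. How often other gene pairs separate in this way was not counted. The ratios are given as a description and were not tested.

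**Figure D3:**
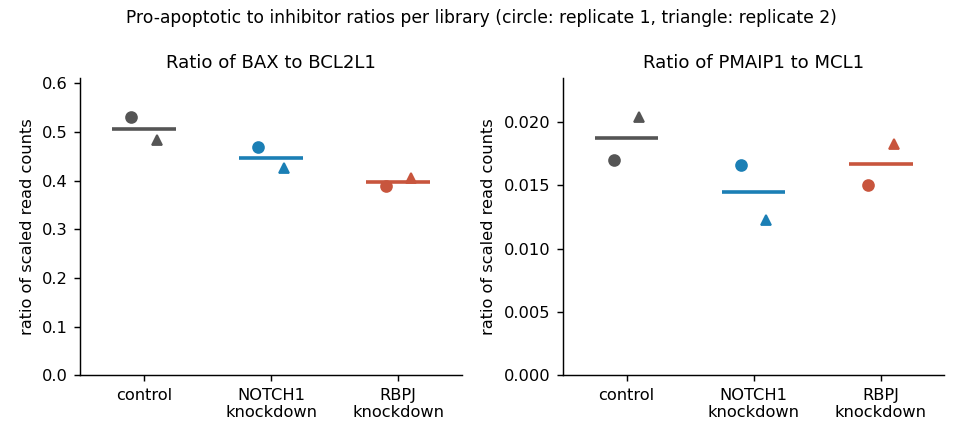
Ratios of scaled read counts per library (vertical axes, from 0), BAX to BCL2L1 on the left and PMAIP1 to MCL1 on the right, for the 3 groups. Circles are replicate 1, triangles replicate 2 and lines the mean. The ratio of BAX to BCL2L1 is 0.484 or more in the control and 0.468 or less in the knockdowns, while the ratio of PMAIP1 to MCL1 overlaps between the control and the RBPJ knockdown.

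The ratio of PMAIP1 to MCL1 was 0.0170 and 0.0204 in the control, 0.0166 and 0.0123 in the NOTCH1 knockdown and 0.0150 and 0.0183 in the RBPJ knockdown. It followed PMAIP1, since MCL1 hardly varied. The ratio of BAX to BCL2 ran from 73.9 to 929 and was set by the few BCL2 reads, with its lowest values in replicate 2 of the control and of the RBPJ knockdown.

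Of 16 other BCL2 family and BH3 genes, 12 had a row, 11 were tested and 0 passed in either comparison. Their median log2 fold change was -0.08 in the NOTCH1 knockdown, with 2 higher and 9 lower by sign, and -0.06 in the RBPJ knockdown, with 3 higher and 8 lower. BCL2L11, which encodes the BH3-only protein BIM, had 69.9 and 139 in the control, 65.6 and 55.8 in the NOTCH1 knockdown and 145 and 79.2 in the RBPJ knockdown, so that the controls differed from each other more than replicate 1 of the control did from the NOTCH1 knockdown. BNIP2 and BCL2L13, the latter a mitochondrial outer membrane protein, had log2 fold changes of -0.65 and 0.17 in the NOTCH1 knockdown. BCL2L2, an inhibitor also called BCL-w, BECN1, an autophagy protein with a BH3 motif, and BNIP2 had -0.56, -0.19 and -0.41 in the RBPJ knockdown. BCL2L2 ran from 35.9 to 101 over the libraries and its groups overlapped.

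Of 26 genes of the caspase cascade, death receptors and inhibitors of apoptosis proteins, 21 were tested and 0 passed in either comparison. The median was -0.03 in the NOTCH1 knockdown, with 9 higher and 12 lower, and 0.02 in the RBPJ knockdown, with 11 higher and 10 lower. AIFM1, a mitochondrial flavoprotein that can move to the nucleus in dying cells, had 765 and 886 in the control, 615 and 631 in the NOTCH1 knockdown and 648 and 699 in the RBPJ knockdown. All 4 knockdown libraries lay below both controls, as for 1 of the 21 tested genes of this list, against 7.93% of all genes. In the other direction 2 of the 21 lay above both controls in all 4, against 7.98% of all genes. The fold changes of AIFM1 were 0.757 in the NOTCH1 knockdown (limma adjusted p = 0.493) and 0.818 in the RBPJ knockdown (limma adjusted p = 0.983).

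FAS, a death receptor, had 30.6 and 20.7 in the control, 54.2 and 47.4 in the NOTCH1 knockdown and 40.0 and 23.6 in the RBPJ knockdown. Its fold change in the NOTCH1 knockdown was 1.97 on the scale of log2 of the value plus 1 (limma adjusted p = 0.623). ENDOG, a mitochondrial nuclease, had a log2 fold change of 0.17 there. CYCS, which encodes cytochrome c, had 4891 and 4815 in the RBPJ knockdown against 5330 and 5707 in the control, a log2 fold change of -0.18, and BIRC3, an inhibitor of apoptosis protein, had -0.33. The initiator caspase gene CASP8 and its regulator CFLAR stayed at or below 5.57 and 6.90 in all libraries. FASLG and TNFRSF1A were also under the minimum, while FADD, an adaptor of FAS, had 1319 to 1535.

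All 16 genes of a stress and damage response list were tested and 0 passed in either comparison. Their median was -0.16 in the NOTCH1 knockdown and -0.12 in the RBPJ knockdown, with 12 and 11 of 16 lower by sign, where 51.1% and 49.7% of all genes were higher by sign. SESN1, a stress-inducible sestrin, had a log2 fold change of -0.62 in the NOTCH1 knockdown. DDIT3, a transcription factor of the unfolded protein response, had 185 and 171 in the control. It had 161 and 111 in the NOTCH1 knockdown and 130 and 144 in the RBPJ knockdown. All 4 knockdown libraries lay below both controls, as for 3 of the 16 genes of this list, against 7.93% of all genes. E2F1 and ATF4 had log2 fold changes of -0.30 and -0.12 in the RBPJ knockdown.

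All 18 mitochondrial, partner and turnover factors were tested and 0 passed in either comparison, with medians of -0.09 in the NOTCH1 knockdown and 0.01 in the RBPJ knockdown. In the NOTCH1 knockdown AKT1, a kinase that phosphorylates BAD, VDAC1, a channel of the outer mitochondrial membrane, and MFN1, a mitochondrial fusion protein, had log2 fold changes of 0.25, 0.28 and 0.28. STAT3, a transcription factor of cytokine signalling, had 2204 and 2326 in the control, 2685 and 2383 in the NOTCH1 knockdown and 2694 and 2710 in the RBPJ knockdown. All 4 knockdown libraries lay above both controls, as for 2 of the 18 genes of this list, against 7.98% of all genes. The log2 fold change of STAT3 in the RBPJ knockdown was 0.26 (limma adjusted p = 0.983). TMBIM6, a suppressor of BAX-driven death, and MARCHF5, a mitochondrial ubiquitin ligase, had log2 fold changes of -0.24 and -0.38 in the RBPJ knockdown. Both genes lay below both controls in all 4 knockdown libraries, as did 4 of the 18 in all, against 7.93% of all genes.

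**Figure D4:**
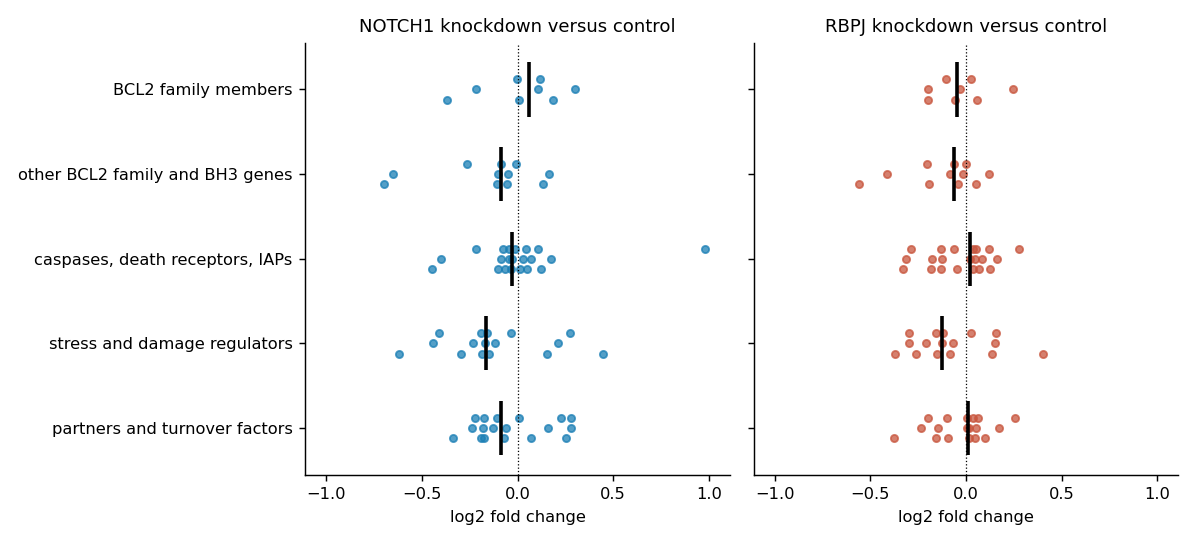
Log2 fold change (horizontal axes) of each tested gene in the 5 lists, NOTCH1 knockdown on the left and RBPJ knockdown on the right. Points are genes and black lines list medians, which run from -0.16 to 0.06 on the left and from -0.12 to 0.02 on the right. FAS is the point farthest to the right on the left side, at 0.98.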

How the data were processed

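The deposited table gives one signal value per gene and library, which the authors made by scaling read counts, as judged from the values. Salmon 0.14.1, DESeq2 and ARS-UCD1.2 are named without role, per the submitters' processing notes. Annotation, filters and use of strand: not given in the sources used here. From 84.7% to 86.2% of values below 10 lay within 0.1 reads of a whole number of reads, too few for a count test. So limma 3.58.1 (R 4.3.3) was run on log2(value + 1), a scale that understates fold changes of low genes. The 2551 of 17922 rows without a symbol (6.20% to 7.22% of the totals) were left out. The 12070 genes with a mean of at least 10 entered a group-means model over 6 libraries with 3 residual degrees of freedom and a variance trend, after a test on simulated data. Values are not divided by transcript length, so levels of different genes were not ranked, and ratios of genes were compared only between libraries.

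Members, lists and tests were chosen with earlier results of these data known. Named were all members, RBPJ and NOTCH1, and per list the 3 genes with the smallest p in each comparison with the control, of which 1 is not reported here. CASP8, CFLAR, FASLG, TNFRSF1A, FADD, GATA3 and GATA6 were named after their values were seen. The difference of replicates 1 and 2 correlated across genes at 0.17 to 0.21 in the 3 pairs of groups. This pairing comes from the data and not from the labels, so calls are given without a replicate block unless one is named. Plots were made in Python 3.11.15 with matplotlib 3.10.9.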

Additional observations from a re-analysis of the deposited data

How the results depend on the processing

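The members past the threshold numbered 0 in all 3 comparisons under each alternative run: quantile normalization, median-of-ratios scaling, pseudocounts of 0.1 and 10, a minimum mean of 100 or none, robust moderation, no variance trend, a fit to the compared groups alone, a replicate block and leaving out single libraries. With the replicate block limma called 138 genes in the NOTCH1 knockdown, 12 in the RBPJ knockdown and 15 between the knockdowns, none of them a member. Without a variance trend it called 0 genes in the RBPJ knockdown and 0 between the knockdowns, where RBPJ had been called. Over omitted libraries the counts ran from 0 to 1, from 1 to 3 and from 0 to 3. The members' median in the NOTCH1 knockdown, 0.057, was 0.0085 with no minimum, when BCL2 entered, 0.106 with a minimum mean of 100, when PMAIP1 left, and 0.023 after quantile normalization. Leaving out replicate 1 of the NOTCH1 knockdown gave 0.022 and leaving out replicate 2 gave 0.112. The median in the RBPJ knockdown ran from -0.078 without its replicate 2 to -0.016 without its replicate 1, and the median between the knockdowns, from 0.050 to 0.080 over omitted libraries, was 0.034 after quantile normalization.

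BCL2L1 kept its direction against the control in all alternatives, with log2 fold changes of 0.24 to 0.36 in the NOTCH1 knockdown and 0.23 to 0.26 in the RBPJ knockdown, lowest in the former without replicate 1 of that group. Leaving out a single library could not reverse it, because every knockdown library lay above both controls. The variance settings and the replicate block do not alter a fold change. All changes of sign were in values that had not passed. MCL1 was at -0.040 in the NOTCH1 knockdown and -0.0066 between the knockdowns after quantile normalization. Over omitted libraries, in the NOTCH1 knockdown BAX ran from -0.0069 to 0.242, MCL1 from -0.034 to 0.051 and BOK from -0.129 to 0.120. In the RBPJ knockdown BAD ran from -0.049 to 0.104. Between the knockdowns BCL2L1 ran from -0.0069 to 0.108, MCL1 from -0.00030 to 0.085 and PMAIP1 from -0.342 to 0.0043. The cause of these shifts was not tested. With 1 library left in a group, that library is assumed to vary like the other groups. Depth limits BCL2 most, at 1 to 10 reads a library.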

Other observations

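HBA, an alpha globin gene and the main part of the blood marker sum, was higher in replicate 2 of each group than in any replicate 1. It had 976, 1067 and 1052 scaled reads in replicate 1 of the control, NOTCH1 knockdown and RBPJ knockdown, and 1344, 1380 and 1366 in replicate 2. HBB, the beta globin gene, stayed between 1.06 and 8.63 in the same libraries. HBA was singled out after its values were seen.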
